A study of Mus musculus with 12 samples.

Results

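The mitochondrial ribosomal protein genes comprise the nuclear genes named Mrpl (large subunit) and Mrps (small subunit) that encode the proteins of the mitoribosome. They were taken by name from a table of read counts as the protein-coding genes with the prefix Mrpl or Mrps followed by a digit. This gave 78 of 55335 genes, 49 named Mrpl and 29 named Mrps, on 17 chromosomes of the mouse genome. The genes were followed in splenic CD8 T cells of OT-I mice, a C57BL/6-background line with a transgenic receptor for antigen on its T cells. The cells had been transduced with a retroviral vector that carried Batf3 (Batf3 cells) or was empty (control cells) and were sorted for transduction, and each was then cultured for 6 h. Stimulated cultures were given plate-bound antibody to CD3e plus antibody to CD28 at 1 µg/ml each, and non-stimulated cultures were kept in IL-15 at 100 ng/ml. The labels name IL-15 for the non-stimulated cultures alone, so as far as the labels say stimulated and non-stimulated cells differed in both IL-15 and the antibodies. The 4 groups were Batf3 stimulated, Batf3 non-stimulated, control stimulated and control non-stimulated cells, each with 3 libraries of polyadenylated RNA, 12 in all. The labels call these replicates technical, so every SD, SE and p-value covers technical spread and none covers the spread between mice or transductions.

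The mitoribosome translates the few mRNAs of mitochondrial DNA, which encode core subunits of the respiratory chain and of ATP synthase. All of its proteins are made from nuclear genes in the cytosol and are imported, while its rRNAs are made inside the mitochondrion. Some of its proteins have a counterpart in bacterial ribosomes and others are found only in mitochondria. In T cells, activation through the antigen receptor is known to bring growth in mitochondrial mass and mitochondrial translation.

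Levels are given in CPM (read counts scaled to a common library total) on library sizes scaled with TMM factors. Total counts were between 14211564 and 14468231 per library, and a count of 3 in a library stood for 0.191 to 0.228 CPM. Of 55335 genes 15702 passed edgeR's filter on low counts and were tested by quasi-likelihood in edgeR, with p-values adjusted over all of them by Benjamini-Hochberg (edgeR adjusted p). Genes with an adjusted p under 0.05 count as called. Batf3 averaged 426.7 and 469.6 CPM in Batf3 stimulated and Batf3 non-stimulated cells, against 18.3 and 6.76 CPM in control stimulated and control non-stimulated cells. The 8 CD8 T cell markers summed to 2093 to 2157, 2551 to 2567, 1783 to 1791 and 2663 to 2693 CPM in the 4 groups in the same order. Of other cell types, Cd4 stayed at or under 0.667 CPM, 5 B cell markers at or under 6.24 CPM with Ms4a1 at 0, and 3 NK cell markers at or under 3.92 CPM with Ncr1 and Klra8 at 0. The 8 myeloid or dendritic cell markers summed to 15.4 to 19.2 CPM in the libraries of Batf3 cells, with Lyz2 and Siglech at 0, and to 9.58 to 12.2 CPM in those of control cells, with Clec9a at 0 as well. The 6 erythroid markers summed to at most 3.71 CPM in any library, with Hbb-bs at 0 in all. The part of these markers in the results on ribosomal protein genes was not tested, and in bulk RNA fewer cells of a type and less RNA per cell cannot be told apart. Replicate 3 of Batf3 stimulated cells differed most from its group, with a chi-square per degree of freedom of 3.16 and 2.62 against replicates 1 and 2, while all other pairs of replicates gave 1.46 to 2.16.

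The promoters of 7 genes are shown because the largest changes with stimulation described below concern them, and other genes with large rises are not shown. Mrps6 and Mrpl47 were among the 6 largest rises with either vector, Mrpl12 added most to the summed rise in control cells, and Mrpl14, Mrps16, Mrpl34 and Mrpl58 were among the 6 largest falls with either vector. Of 78 genes 69 had a promoter of 300 bases, 250 before and 50 after the start of the gene, in a table from RefSeq (GRCm38.p6). The letters GCGC, any 2 bases and GCGC (of the NRF1 type, after nuclear respiratory factor 1), CCGGAAG (of the ETS type) and AAGATGGC (of the YY1 type) were searched on both strands, and their matches are printed in capitals. Mrps6 (chr16:92058086-92058385, plus strand), Mrpl47 (chr3:32736706-32737005, minus strand) and Mrpl12 (chr11:120484387-120484686, plus strand) are promoters of genes that rose with stimulation. Mrpl14 (chr17:45686099-45686398, plus strand), Mrps16 (chr14:20393441-20393740, minus strand, the first of 2 windows listed), Mrpl34 (chr8:71464676-71464975, plus strand) and Mrpl58 (chr11:115403502-115403801, plus strand) are promoters of genes that fell.
Mrps6: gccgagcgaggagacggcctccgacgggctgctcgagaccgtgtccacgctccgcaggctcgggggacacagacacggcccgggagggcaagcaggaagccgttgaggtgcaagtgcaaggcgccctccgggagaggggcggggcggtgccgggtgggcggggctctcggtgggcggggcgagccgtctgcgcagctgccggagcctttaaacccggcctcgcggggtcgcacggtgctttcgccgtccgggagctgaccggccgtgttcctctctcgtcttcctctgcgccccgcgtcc
Mrpl47: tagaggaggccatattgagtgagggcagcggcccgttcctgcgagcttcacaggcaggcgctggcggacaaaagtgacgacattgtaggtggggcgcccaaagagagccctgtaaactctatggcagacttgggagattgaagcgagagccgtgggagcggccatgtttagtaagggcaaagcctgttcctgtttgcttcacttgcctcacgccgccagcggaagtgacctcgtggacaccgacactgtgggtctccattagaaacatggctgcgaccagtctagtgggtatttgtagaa
Mrpl12: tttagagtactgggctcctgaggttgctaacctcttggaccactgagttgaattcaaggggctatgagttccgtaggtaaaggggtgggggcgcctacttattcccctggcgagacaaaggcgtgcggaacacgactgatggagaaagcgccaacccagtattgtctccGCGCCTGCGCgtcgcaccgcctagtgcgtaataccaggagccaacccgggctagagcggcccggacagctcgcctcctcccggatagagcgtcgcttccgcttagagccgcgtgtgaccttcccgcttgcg
Mrpl14: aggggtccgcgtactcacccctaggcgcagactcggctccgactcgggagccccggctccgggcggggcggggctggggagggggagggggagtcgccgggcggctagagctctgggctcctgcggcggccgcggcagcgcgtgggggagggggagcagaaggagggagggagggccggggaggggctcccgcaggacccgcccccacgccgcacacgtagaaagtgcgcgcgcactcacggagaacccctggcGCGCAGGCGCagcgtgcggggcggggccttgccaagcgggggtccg
Mrps16: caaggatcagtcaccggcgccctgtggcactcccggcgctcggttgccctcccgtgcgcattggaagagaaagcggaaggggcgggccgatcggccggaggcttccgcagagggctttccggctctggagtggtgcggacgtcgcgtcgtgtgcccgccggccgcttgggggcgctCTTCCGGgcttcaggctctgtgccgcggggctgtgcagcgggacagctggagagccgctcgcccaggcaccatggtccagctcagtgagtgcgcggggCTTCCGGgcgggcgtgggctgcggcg
Mrpl34: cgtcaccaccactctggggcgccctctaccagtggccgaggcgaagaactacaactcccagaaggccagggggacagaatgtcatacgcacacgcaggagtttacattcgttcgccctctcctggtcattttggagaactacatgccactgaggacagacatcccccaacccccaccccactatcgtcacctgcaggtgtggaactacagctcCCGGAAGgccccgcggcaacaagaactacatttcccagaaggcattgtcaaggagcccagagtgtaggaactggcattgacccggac
Mrpl58: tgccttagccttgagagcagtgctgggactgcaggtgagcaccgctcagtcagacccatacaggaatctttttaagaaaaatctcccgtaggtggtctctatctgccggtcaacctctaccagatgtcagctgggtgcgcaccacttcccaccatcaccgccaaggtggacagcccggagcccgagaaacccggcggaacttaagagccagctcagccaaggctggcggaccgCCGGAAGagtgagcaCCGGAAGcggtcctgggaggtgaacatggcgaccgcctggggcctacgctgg

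In these windows the capitals mark NRF1-type letters in Mrpl12 and Mrpl14 and ETS-type letters in Mrps16, Mrpl34 and Mrpl58, while none of the 3 motifs matched in Mrps6 or Mrpl47. Over the 69 promoters, NRF1-type letters were found in 14 (20.3%), against 13.7% of the 10049 promoters of tested genes and 6.43% of all 27025 promoters of the table. ETS-type letters were found in 25 (36.2%), against 18.8% of tested and 9.12% of all promoters. YY1-type letters were found in 12 (17.4%), against 4.87% of tested and 2.88% of all promoters. The E-box CACGTG, the letters that MYC is known to bind, stood in 5 promoters (7.25%), those of Mrpl2, Mrpl20, Mrpl36, Mrpl37 and Mrps18c, against 10.1% of tested promoters and 7.24% of all. GGGCGG (of the SP1 type) stood in 49.3%, 63.2% and 35.9% of the members', tested and all promoters; it overlaps the ETS-type letters in Mrps16. TGANTCA, the AP-1-type letters that BATF family dimers are known to bind, stood in 3 promoters (4.35%), those of Mrpl33, Mrps25 and Mrps5, against 5.13% of tested promoters and 7.93% of all. These matches describe letters in a window and not sites in use.

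All 78 genes but Mrpl53 passed the filter on low counts. Mrpl53, a large subunit gene whose protein has no counterpart in bacterial ribosomes, had 7 counts over the 12 libraries and at most 3 in one. On the same strand 88.0% of its exon length is shared with Gm42688, so its level is uncertain. Per kilobase of merged exons the other 77 genes spanned 1.35 to 83.2 CPM per kb in Batf3 stimulated, 1.835 to 37.3 in Batf3 non-stimulated, 1.67 to 82.5 in control stimulated and 2.00 to 40.1 in control non-stimulated cells. Mrpl12, the stalk protein of the large subunit to which translation factors bind, was highest in both stimulated groups, at 83.2 ± 2.57 CPM per kb in Batf3 stimulated and 82.5 ± 2.88 CPM per kb in control stimulated cells (SD, n = 3). In the mean over groups Mrpl12, Mrpl54, Mrpl20, Mrps21 and Mrps23 stood highest, with 59.1, 44.2, 35.4, 34.9 and 31.55 CPM per kb. Mrpl20, a counterpart of bacterial L20, and Mrps21, a counterpart of bacterial S21, were neighbours in this mean but not within groups. Mrpl20 had 48.1 ± 3.26 and 48.5 ± 1.12 CPM per kb in Batf3 stimulated and control stimulated cells, where Mrps21 had 36.7 ± 2.99 and 32.3 ± 1.91, and 21.96 ± 0.744 and 23.2 ± 1.53 CPM per kb in Batf3 non-stimulated and control non-stimulated cells, where Mrps21 had 33.8 ± 2.04 and 36.8 ± 3.52. Mrps21 and Mrps23 differed by less than the SD of Mrps21 in control stimulated cells. Mrpl53, Mrps34, Mrps25, Mrpl48 and Mrps35 stood lowest, with 0.0516, 1.715, 2.215, 3.83 and 3.96 CPM per kb. With the length of the principal transcript in place of merged exons, a choice made after seeing the data, Mrpl20, Mrpl33, Mrpl30, Mrpl12 and Mrpl42 stood highest and Mrpl53, Mrps25, Mrps34, Mrpl17 and Mrpl1 lowest. The order of levels between genes moved with the length used.

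**Figure D1:**
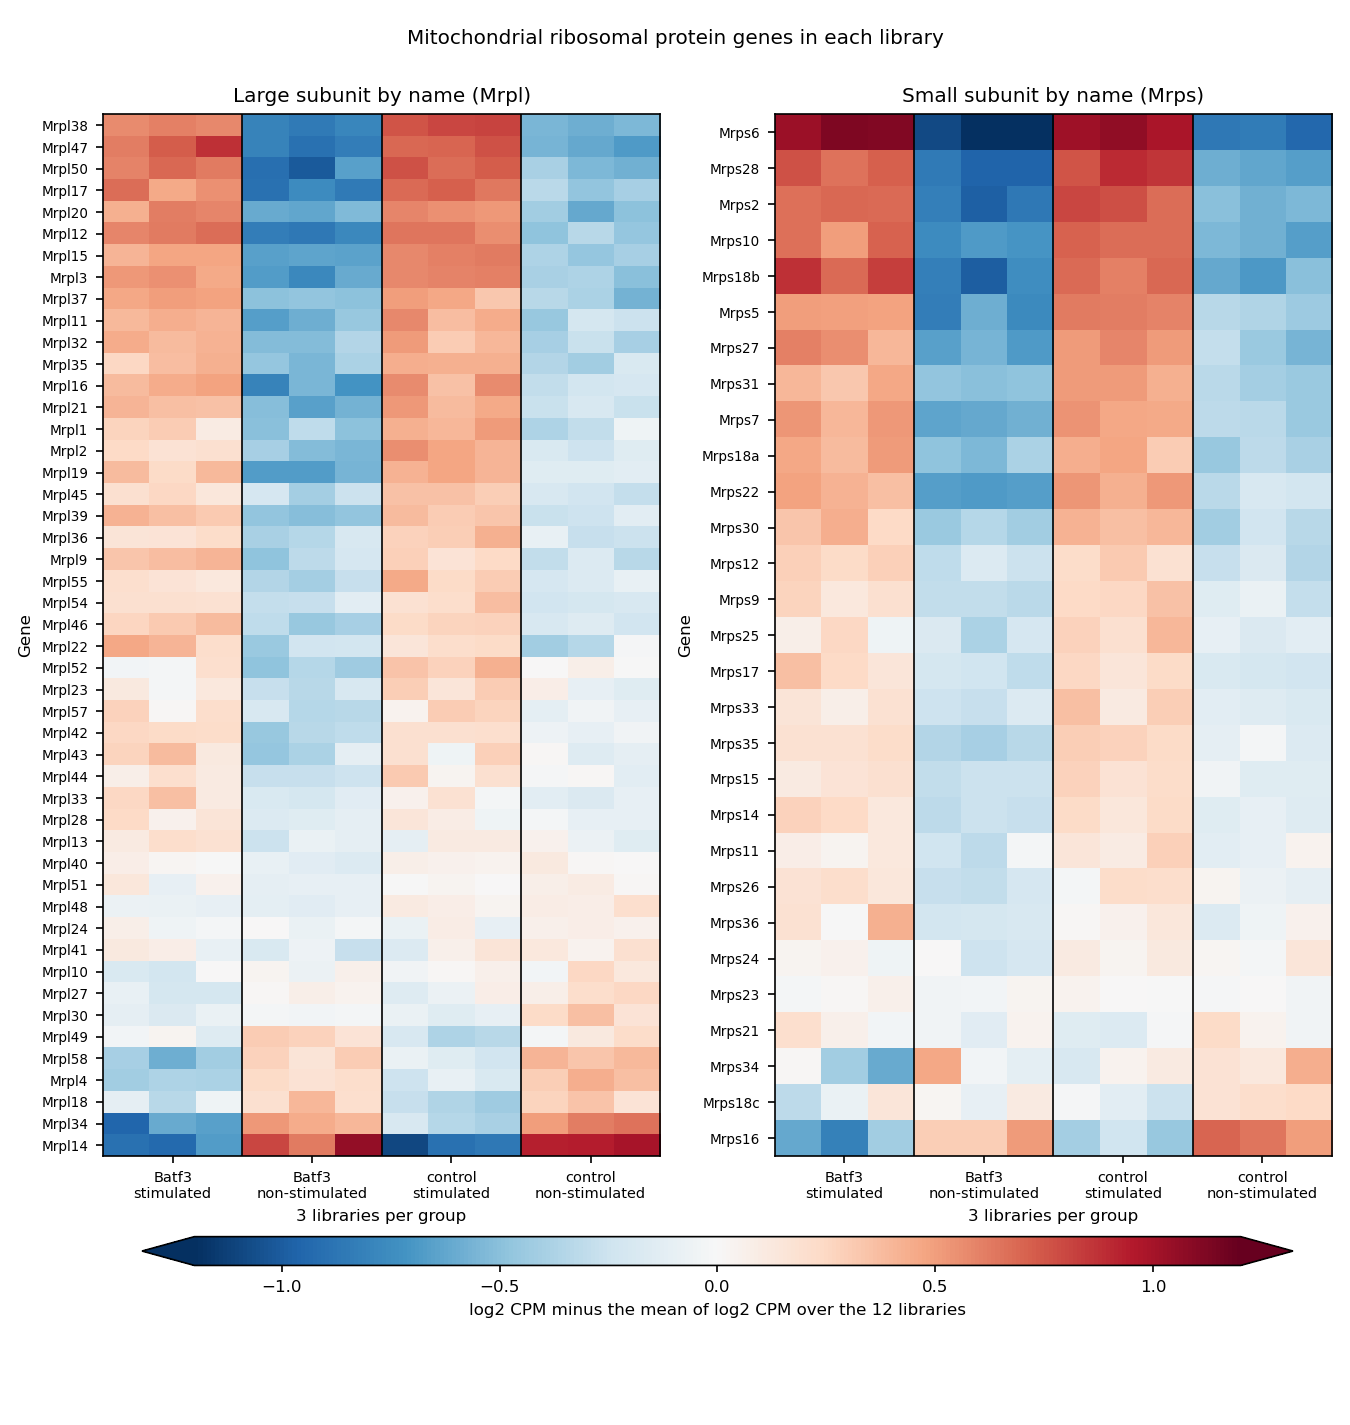
Heat map of 77 genes (rows, large subunit left, small subunit right, ordered by the change with stimulation in control cells) in 12 libraries (columns, 3 per group), coloured by log2 CPM minus the mean of that gene's log2 CPM over all libraries. Many genes are high in both stimulated groups and lowest in Batf3 non-stimulated cells, and a few at the bottom, with Mrpl14, Mrpl34 and Mrps16, are low in both stimulated groups.

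The first comparison asks how stimulation changed these genes in cells with the empty vector. Of 77 genes 54 rose and 11 fell, at a background of 39.6% of all tested genes higher and 40.7% lower. The median log2 change of the 77 genes was 0.45, against -0.01 over all tested genes. By name 32 of 48 large subunit genes rose and 8 fell (median 0.45), and 22 of 29 small subunit genes rose and 3 fell (median 0.42). Among large subunit proteins with a bacterial counterpart 20 of 30 genes rose and 6 fell (median 0.52), and among those found only in mitochondria 12 of 18 rose and 2 fell (median 0.28). Among small subunit genes the corresponding counts were 12 of 16 higher and 3 lower (median 0.43) and 8 of 10 higher (median 0.42). The rises reached a log2 change of at least 1 in 13 genes and the falls in 1. How many of all tested genes reached that size was not counted. The quartiles of the log2 change were -0.96 and 0.66 over all tested genes and 0.04 and 0.77 over the 77. On library sizes without TMM factors the median of all tested genes moved by -0.19 and the counts became 45 higher, all among the 54, and 19 lower, which held all of the 11. Of all 15702 tested genes 5086 were then higher and 7443 lower.

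The largest rise was that of Mrps6 (ENSMUSG00000039680, chromosome 16, 92058270 to 92112227, plus strand, GRCm38), the counterpart of bacterial S6 in the small subunit. Mrps6 had 41.5, 42.9 and 40.4 CPM in control stimulated libraries and 11.35, 11.5 and 10.65 CPM in control non-stimulated libraries. All stimulated libraries lay above all non-stimulated ones, with a log2 change of 1.90 ± 0.08 (SE; edgeR adjusted p = 5.44e-32). Libraries were separate in this comparison in 52 higher and 10 lower of the 77 genes. Among all 15702 tested genes they were separate in 6300 higher and 6446 lower. Of the exon length of Mrps6 19.9% is shared on the same strand with Slc5a3 and Gm49711, and Slc5a3, an inositol transporter, averaged 34.2 ± 1.30 CPM in control stimulated and 3.62 ± 0.955 CPM in control non-stimulated cells. The setting by which reads were assigned to overlapping genes or strands is not given in the sources used, so the size of the change of Mrps6 is uncertain. Mrps28, also of the small subunit, had 30.65, 33.7 and 32.8 CPM in control stimulated libraries and 12.1, 11.8 and 11.45 CPM in control non-stimulated libraries. The groups of Mrps28 did not overlap, and the log2 change was 1.46 ± 0.08 (edgeR adjusted p = 3.59e-25).

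Mrpl38 and Mrpl47 of the large subunit, Mrps2, a counterpart of bacterial S2, and Mrps10, a counterpart of bacterial S10, followed. Mrpl38 (chromosome 11, 116131817 to 116138868, minus strand) had 67.9, 70.1 and 70.7 CPM in control stimulated libraries and 27.7, 26.9 and 27.8 CPM in control non-stimulated libraries (log2 change 1.34 ± 0.06; edgeR adjusted p = 1.52e-31). Mrpl47 had 37.0, 37.3 and 39.1 CPM in control stimulated libraries and 15.6, 15.0 and 14.3 CPM in control non-stimulated libraries (log2 change 1.34 ± 0.08; edgeR adjusted p = 1.72e-24), and 24.2% of its exon length lies opposite exons of Actl6a and Ndufb5. Mrps2 (chromosome 2, 28468066 to 28471178, plus strand) had 100.5, 98.4 and 92.1 CPM in control stimulated libraries and 40.7, 38.6 and 39.8 CPM in control non-stimulated libraries (log2 change 1.29 ± 0.05; edgeR adjusted p = 6.30e-33). In each of these genes every stimulated library lay above every non-stimulated one. Mrps10 rose by a log2 change of 1.27 ± 0.06, with 54.8 ± 0.864 CPM in control stimulated and 22.7 ± 1.00 CPM in control non-stimulated cells (edgeR adjusted p = 2.04e-27).

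Mrpl12 (ENSMUSG00000039640, chromosome 11, 120484613 to 120489065, plus strand), which is also reported to bind the mitochondrial RNA polymerase, added most to the summed level. Mrpl12 had 129.1, 128.8 and 121.3 CPM in control stimulated libraries and 59.1, 65.4 and 60.0 CPM in control non-stimulated libraries. The libraries were separate and the log2 change was 1.04 ± 0.04 (edgeR adjusted p = 7.22e-31). Of a summed rise of 933.9 CPM, Mrpl12 made up 6.95%, Mrps2 6.13%, Mrpl15 5.76% and Mrpl3 5.48%. Mrpl15 and Mrpl3 are counterparts of bacterial L15 and L3.

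The 11 genes that fell in control cells included 8 that fell with the Batf3 vector too. Mrpl14 (ENSMUSG00000023939, chromosome 17, 45686322 to 45698495, plus strand), the counterpart of bacterial L14, had the largest fall. Mrpl14 had 2.59, 2.97 and 3.04 CPM in control stimulated libraries and 10.55, 10.6 and 10.99 CPM in control non-stimulated libraries, and the log2 change was -1.90 ± 0.16 (edgeR adjusted p = 9.63e-18). No stimulated library reached the level of a non-stimulated one. Mrps16, a small subunit protein with a bacterial counterpart, had 25.25, 28.2 and 24.4 CPM in control stimulated libraries and 54.3, 52.2 and 47.25 CPM in control non-stimulated libraries (log2 change -0.98 ± 0.08; edgeR adjusted p = 2.50e-15). Mrpl34, a large subunit protein with a bacterial counterpart, had 8.29, 7.46 and 7.23 CPM in control stimulated libraries and 13.4, 14.5 and 14.9 CPM in control non-stimulated libraries (log2 change -0.90 ± 0.11; edgeR adjusted p = 8.41e-11). The groups of both genes were apart. Mrpl18, a 5S rRNA-binding counterpart of bacterial L18, Mrpl4, a counterpart of bacterial L4, and Mrpl58, a peptidyl-tRNA hydrolase built into the large subunit that releases chains from stalled ribosomes, fell less. Their log2 changes were -0.62 ± 0.07 for Mrpl18, -0.54 ± 0.05 for Mrpl4 and -0.53 ± 0.07 for Mrpl58, with edgeR adjusted p of 1.14e-11, 4.56e-14 and 2.05e-09. Mrpl49 and Mrpl27 fell as well, with log2 changes of -0.40 and -0.23. Mrpl30, Mrps18c and Mrps21 fell in control cells with log2 changes of -0.36, -0.34 and -0.19 and had -0.09, -0.08 and 0.12, not called, with the Batf3 vector. Of the 7 genes that fell with both vectors and had a promoter in the table, 5 held ETS-type letters (Mrpl18, Mrpl27, Mrpl34, Mrpl58 and Mrps16). These letters stood in 15 of the 48 that rose with both and in 18.8% of tested promoters. NRF1-type letters stood in 1 of the 7 and 10 of the 48, and YY1-type letters in 1 and 10. The counts were 4 and 24 for SP1-type letters, 0 and 4 for the E-box and 0 and 3 for AP-1-type letters. The ETS type had the widest gap of the motifs searched, the genes are few, and the difference was not tested.

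With the Batf3 vector 60 of 77 genes rose with stimulation and 10 fell, at a background of 41.2% of tested genes higher and 41.4% lower, and the median log2 change was 0.50, against 0.01 over all tested genes. By name 37 of 48 large subunit genes rose and 8 fell (median 0.50), and 23 of 29 small subunit genes rose and 2 fell (median 0.50). The changes with the 2 vectors were estimated in separate cells but in one model. All 54 genes that rose with the empty vector also rose with Batf3, and no gene was called in opposite directions. Such shared and opposite calls were not counted over all tested genes. The 6 genes called higher with the Batf3 vector alone were Mrpl13, Mrpl28, Mrpl40, Mrpl41, Mrpl51 and Mrps36. Mrpl10 and Mrps34 were called lower with the Batf3 vector alone, and the 4 called with neither vector were Mrpl24, Mrpl48, Mrps23 and Mrps24. Mrps23, a small subunit protein found only in mitochondria, had log2 changes of 0.03 with either vector and 49.7 ± 1.38, 48.8 ± 1.44, 49.7 ± 0.762 and 48.6 ± 0.853 CPM in Batf3 stimulated, Batf3 non-stimulated, control stimulated and control non-stimulated cells (SD, n = 3).

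Mrps6 again had the largest rise, with 41.8, 44.5 and 44.2 CPM in Batf3 stimulated libraries and 9.67, 8.32 and 8.45 CPM in Batf3 non-stimulated libraries. The log2 change of Mrps6 was 2.30 ± 0.08 (edgeR adjusted p = 7.795e-36), beside 46.9 ± 2.11 and 5.07 ± 0.570 CPM of its overlapping neighbour Slc5a3. Mrps18b, 1 of 3 mammalian relatives of bacterial S18, had 36.2, 31.6 and 35.1 CPM in Batf3 stimulated libraries and 11.1, 9.92 and 11.8 CPM in Batf3 non-stimulated libraries (log2 change 1.65 ± 0.09; edgeR adjusted p = 2.79e-27), with 30.5% of its exon length opposite Gm16279. Stimulated and non-stimulated libraries were apart in both genes. They were apart in 58 higher and 9 lower of the 77 genes, and in 6477 higher and 6506 lower of all 15702 tested genes. Mrps28, Mrpl47, Mrps2 and Mrpl50 rose by log2 changes of 1.63, 1.59, 1.56 and 1.48. Mrpl14 fell, with a log2 change of -1.66 ± 0.16 and 2.97, 2.89 and 3.46 CPM in Batf3 stimulated and 9.61, 8.51 and 11.5 CPM in Batf3 non-stimulated libraries (edgeR adjusted p = 1.08e-15). Mrpl34 fell, with a log2 change of -1.18 ± 0.12 and 4.90, 6.22 and 6.04 CPM in Batf3 stimulated and 13.6, 12.9 and 12.5 CPM in Batf3 non-stimulated libraries (edgeR adjusted p = 7.05e-14). Neither gene had overlapping groups. Mrps16, Mrpl58, Mrpl4 and Mrpl18 had log2 changes of -0.97, -0.71, -0.59 and -0.43, all called lower.

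**Figure D2:**
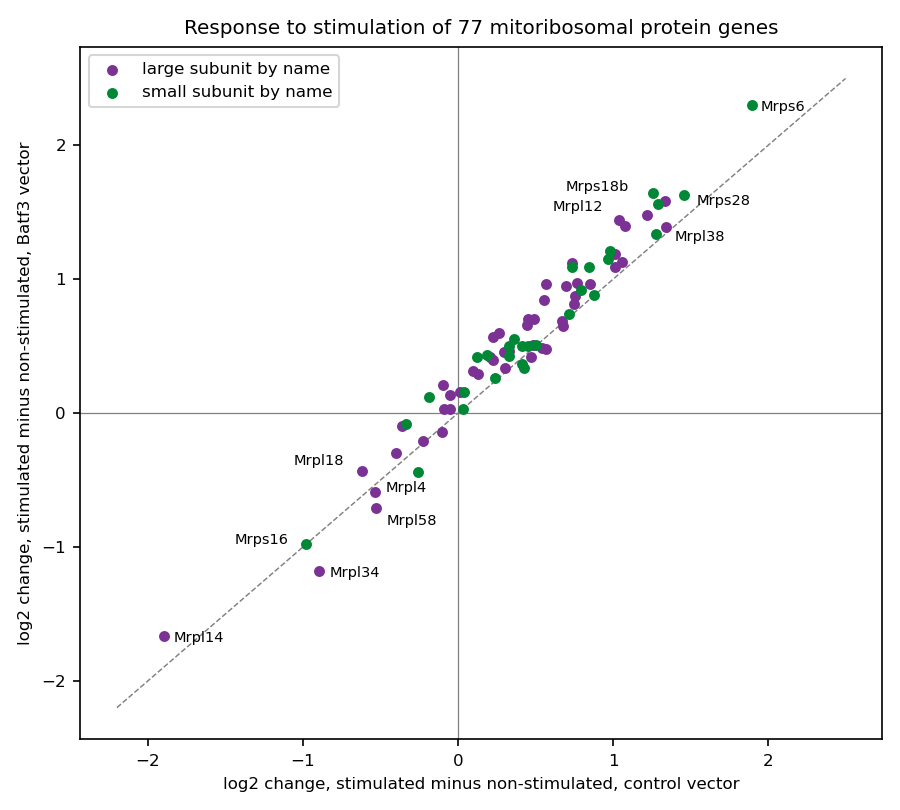
Log2 change with stimulation in control cells (horizontal) and in Batf3 cells (vertical) for 77 genes, large subunit in purple and small subunit in green, with the line of equal change dashed. Most points lie in the upper right above the line, Mrps6 is farthest at 1.90 and 2.30, and Mrpl14 lies at the other end at -1.90 and -1.66.

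The next comparison asks what the Batf3 vector changed in non-stimulated cells. Of 77 genes 38 were lower in Batf3 cells and 0 were higher, at a background of 23.0% of tested genes lower and 16.3% higher. By edgeR's unadjusted p under 0.05, 45 were lower and 1 higher, and DESeq2 called 29 lower and 0 higher. Over all tested genes DESeq2 called 3042 lower and 2016 higher, and a count by unadjusted p was not made. The median log2 change was -0.17, against -0.02 over all tested genes, and none reached an absolute value of 1. By name 25 of 48 large subunit genes (median -0.19) and 13 of 29 small subunit genes (median -0.15) were lower. A single gene was called higher without replicate 1 or replicate 2 of Batf3 stimulated cells or replicate 3 of control non-stimulated cells, and on library sizes without TMM factors 24 genes were lower and 1 higher, with a median of -0.10. That rescaling turned the split of all called genes to 60.1% higher, against 41.5% with TMM factors, and moved the median of all tested genes to 0.05. Of all 15702 tested genes 3604 were then higher and 2397 lower.

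Mrpl19 (ENSMUSG00000030045, chromosome 6, 81957851 to 81965958, minus strand), a counterpart of bacterial L19 at the face between the subunits, had the largest difference. Mrpl19 had 31.2, 31.3 and 33.8 CPM in Batf3 non-stimulated libraries and 45.05, 45.0 and 45.6 CPM in control non-stimulated libraries. Each Batf3 library lay below each control library, and the log2 change was -0.49 ± 0.06 (edgeR adjusted p = 9.47e-11), while 36.0% of the exon length of Mrpl19 lies opposite Gcfc2. Mrpl16, a counterpart of bacterial L16, had 17.4, 20.7 and 18.4 CPM in Batf3 non-stimulated libraries and 24.7, 26.0 and 26.3 CPM in control non-stimulated libraries (log2 change -0.44 ± 0.08; edgeR adjusted p = 1.72e-06). Mrpl12 had 46.5, 45.6 and 48.25 CPM in Batf3 non-stimulated libraries against 59.1, 65.4 and 60.0 CPM in control non-stimulated libraries (log2 change -0.39 ± 0.05; edgeR adjusted p = 7.34e-10). Both genes had non-overlapping groups. Mrpl52, Mrpl17 and Mrps22 had log2 changes of -0.44, -0.44 and -0.42 (edgeR adjusted p of 5.04e-06, 2.87e-07 and 8.26e-06), and in all 3 genes every Batf3 library lay below every control library. Such separation was found in 0 higher and 46 lower of the 77 genes, and in 3249 higher and 4264 lower of all 15702 tested genes. Mrpl49, a large subunit protein found only in mitochondria, had the highest change of the 77, a log2 change of 0.14 ± 0.07 that was not called.

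In stimulated cells 11 of 77 genes were lower in Batf3 cells and 4 higher, at a background of 14.6% of tested genes lower and 14.8% higher. The share of lower genes is close to that background and the share of higher genes is under it. The median log2 change was -0.05, against 0.00 over all tested genes. Of the 48 large subunit genes 10 were lower and 4 higher, and of the 29 small subunit genes Mrps16 alone was called. The 4 higher genes were Mrpl49, Mrpl18, Mrpl33 and Mrpl9, with log2 changes of 0.25, 0.19, 0.17 and 0.14, and this count rests on single libraries. It was 2 without replicate 1 and 1 without replicate 2 of Batf3 stimulated cells, 2 without replicate 3 of Batf3 non-stimulated cells, 1 without replicate 2 and 0 without replicate 3 of control stimulated cells, and 2 without replicate 1 of control non-stimulated cells. DESeq2 called none of these 4 genes higher, while over all tested genes it called 1829 higher and 2041 lower in this comparison.

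Mrpl34 was the lowest, with 4.90, 6.22 and 6.04 CPM in Batf3 stimulated libraries and 8.29, 7.46 and 7.23 CPM in control stimulated libraries (log2 change -0.42 ± 0.14; edgeR adjusted p = 0.0127). Mrpl58 had 18.1, 16 and 17.9 CPM in Batf3 stimulated libraries and 22.7, 21.6 and 20.5 CPM in control stimulated libraries (log2 change -0.32 ± 0.08; edgeR adjusted p = 0.00169). In both genes all Batf3 libraries were below all control libraries. Such separation was found in 3 higher and 18 lower of the 77 genes, and in 3116 higher and 3135 lower of all 15702 tested genes. Mrpl52 and Mrpl2, a counterpart of bacterial L2 at the peptidyl transferase centre, had log2 changes of -0.30 and -0.28, Mrps16 -0.24 and Mrpl1 -0.22. Mrpl2, Mrpl4, Mrpl15, Mrpl23, Mrpl38, Mrpl52 and Mrps16 were lower with Batf3 in both cultures, which makes 7 genes, and no gene was lower in one culture and higher in the other. Calls shared by or opposite in the cultures were not counted over all tested genes, so whether these numbers are unusual cannot be told. Mrps16 overlapped between Batf3 and control libraries in both cultures.

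**Figure D3:**
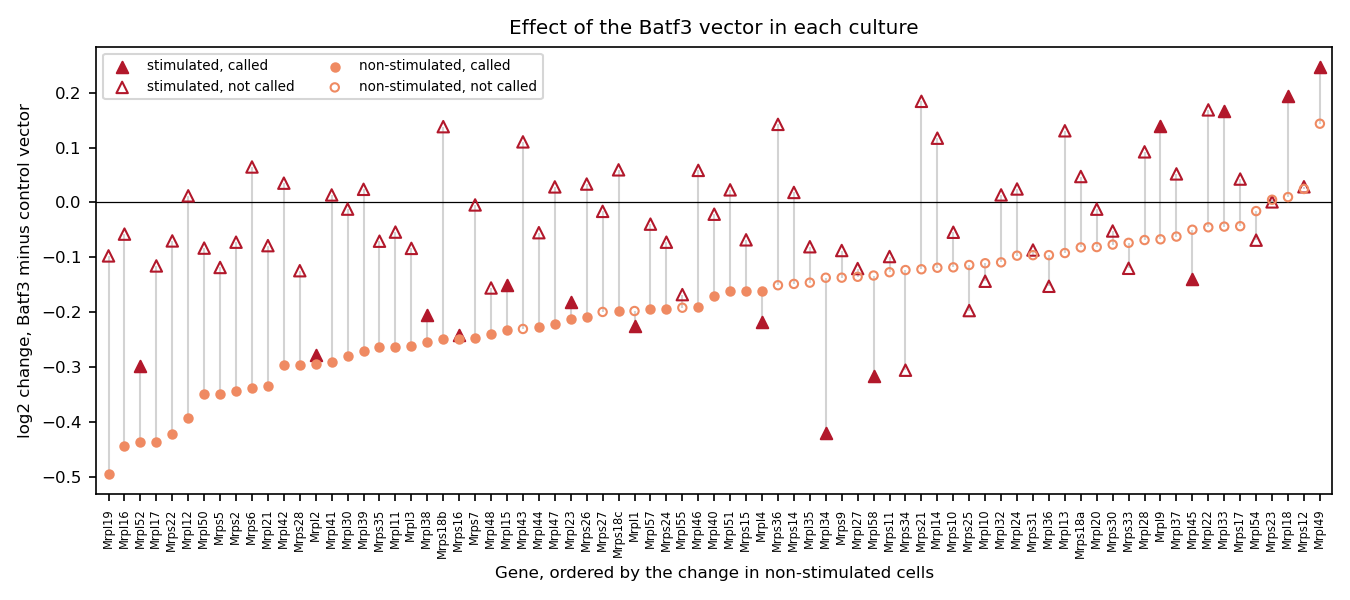
Log2 change of Batf3 against control cells for each of 77 genes (horizontal axis, ordered by the change in non-stimulated cells), triangles for stimulated and circles for non-stimulated cells, filled where called at an adjusted p under 0.05. The circles run from -0.49 for Mrpl19 to 0.14 for Mrpl49, and many triangles lie closer to 0, with Mrpl34 at -0.42 among the exceptions.

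The difference between the Batf3 effects in the 2 cultures was tested as the vector by stimulation interaction, which is the Batf3 effect in stimulated minus that in non-stimulated cells. Of 77 genes 19 had a higher and 0 a lower interaction (30 and 0 by edgeR's unadjusted p under 0.05), at a background of 14.6% higher and 6.08% lower, with a median log2 difference of 0.16 against 0.05 over all tested genes. Of these 19 genes 17 were lower with Batf3 in non-stimulated cells, and 17 rose with stimulation with either vector. The exceptions to the first were Mrpl9 and Mrps21, and to the second Mrpl30 and Mrps21. The interaction is computed from the same group means as those comparisons, so these overlaps are partly built in and are no separate result. Of all 77 genes 38 were lower with Batf3 in non-stimulated cells and 54 rose with both vectors. The overlaps were not counted over all tested genes. Mrpl12 had an interaction of 0.41 ± 0.06 (edgeR adjusted p = 9.11e-07), from 124, 127 and 131.5 CPM in Batf3 stimulated, 46.5, 45.6 and 48.25 CPM in Batf3 non-stimulated, 129.1, 128.8 and 121.3 CPM in control stimulated and 59.1, 65.4 and 60.0 CPM in control non-stimulated libraries. The 2 stimulated groups overlapped and the 2 non-stimulated groups did not. Mrps6 had an interaction of 0.40 ± 0.12, Mrpl19 of 0.40 ± 0.08 and Mrpl16 of 0.39 ± 0.10 (edgeR adjusted p of 0.007755, 5.18e-05 and 0.00232). The count of 19 was 9 without replicate 1 of Batf3 stimulated cells, 9 without replicate 2 and 11 without replicate 3 of control stimulated cells, and DESeq2 called 12 higher and 0 lower. Over all tested genes DESeq2 called 1736 higher and 781 lower interactions, and a count by unadjusted p was not made.

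Without replicate 3 of Batf3 stimulated cells, the library farthest from its group, the counts were 61 higher and 11 lower for stimulation of Batf3 cells, 3 higher and 11 lower for Batf3 against control in stimulated cells, and 21 for the interaction. The 5 comparisons share groups with each other and are not independent of one another.

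Summed over the 78 genes, the level was 3197 ± 23.2 CPM in Batf3 stimulated, 2075 ± 37.1 CPM in Batf3 non-stimulated, 3292 ± 21.7 CPM in control stimulated and 2358 ± 25.6 CPM in control non-stimulated cells (SD, n = 3). The libraries ran from 3170 to 3213, from 2049 to 2117, from 3273 to 3316 and from 2330 to 2380 CPM, so no groups overlapped. On library sizes without TMM factors the sums were 3030 ± 23.3 CPM in Batf3 stimulated and 3022 ± 16.5 CPM in control stimulated cells, so the order of these 2 groups turned round and their libraries overlapped, while Batf3 non-stimulated cells, at 2282 ± 40.4 CPM, stayed below control non-stimulated cells, at 2463 ± 27.4 CPM. The sum was 1.54-fold higher after stimulation of Batf3 cells and 1.40-fold higher after stimulation of control cells. Large subunit genes summed to 2069 ± 9.77 and 1380 ± 25.4 CPM in Batf3 stimulated and non-stimulated cells and to 2137 ± 12.85 and 1574 ± 12.65 CPM in control stimulated and non-stimulated cells. Small subunit genes summed to 1128 ± 16.5 and 695.0 ± 11.95 CPM in the same Batf3 groups and to 1155 ± 9.09 and 783.6 ± 15.8 CPM in the control groups. The ratio of large to small was 1.83 ± 0.02 in Batf3 stimulated against 1.99 ± 0.01 in Batf3 non-stimulated cells, and 1.85 ± 0.01 in control stimulated against 2.01 ± 0.03 in control non-stimulated cells. The ratios of stimulated libraries, 1.81 to 1.86, lay below those of non-stimulated libraries, 1.975 to 2.04, and Batf3 and control libraries overlapped in stimulated and in non-stimulated cultures. Without Mrps6, a choice made after seeing the data, the ratios were 1.91, 2.01, 1.92 and 2.04 in the order of groups above.

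**Figure D4:**
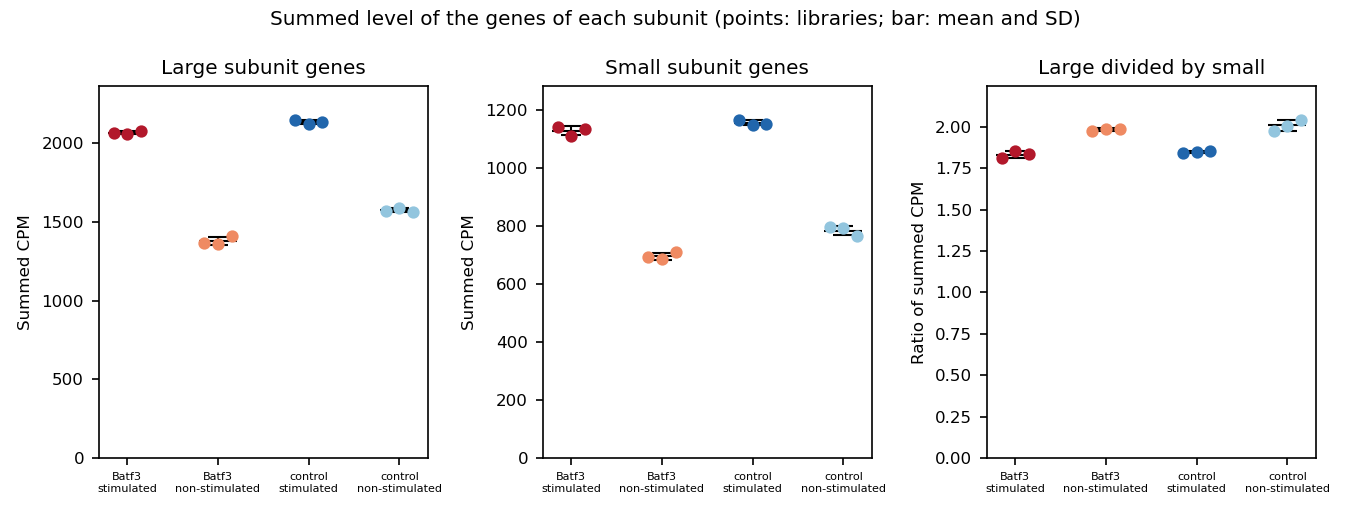
Summed CPM of the large subunit genes (left) and small subunit genes (middle) and their ratio (right) in each group, with points for the 3 libraries and bars for the mean and SD. The sums of stimulated cells lie above those of non-stimulated cells, Batf3 non-stimulated cells are lowest at 1380 and 695.0 CPM, and the ratio is lower in both stimulated groups.

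Names do not always tell the place of a protein. Mrps18a and Mrps30 are proteins of the large subunit despite their names, and both rose with stimulation in control cells, by log2 changes of 0.79 ± 0.07 and 0.72 ± 0.06. Mrps36 is a subunit of the oxoglutarate dehydrogenase complex, and its log2 changes with stimulation were 0.42 ± 0.09, called, with the Batf3 vector and 0.12 ± 0.09, not called, with the empty one. The relatives of bacterial S18 differed, since Mrps18a and Mrps18b rose with stimulation of control cells and Mrps18c fell, with a log2 change of -0.34 ± 0.09 (edgeR adjusted p = 0.000354). Mrps18c had 20.1, 18.5 and 17.0 CPM in control stimulated libraries against 22.9, 23.4 and 23.9 CPM in control non-stimulated libraries, and the groups were apart. Of its exon length 23.2% is shared with Gm43511 on the same strand. Mrps12, a counterpart of bacterial S12 in the decoding centre, rose with stimulation by 0.51 ± 0.08 with each vector and had log2 changes of 0.02 and 0.03, not called, with Batf3. Assigned by the place of the protein, 34 of 50 large subunit genes and 20 of 26 small subunit genes rose with stimulation of control cells, and 8 and 3 fell.

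Counts of some genes are uncertain because neither the strand setting nor the handling of reads with several matches is given in the sources used. Mrps34 shares 37.0% of its exon length on the same strand and 63.4% on the opposite strand with other genes, Mrps25 has 69.8% opposite Nr2c2, and Mrps24 shares 15.4% on the same strand. Mrpl23, Mrpl48 and Mrps36 have processed pseudogenes with reads of their own, of which Mrpl23-ps1 held 244 to 318 counts per library. The counts were repeated without 8 tested genes (Mrpl23, Mrpl48, Mrps6, Mrps18c, Mrps24, Mrps25, Mrps34 and Mrps36) that had at least 10% of their exon length shared on the same strand, at least 50% opposite another gene, or a pseudogene named after them, limits chosen after seeing the data. Genes with smaller overlaps stayed among the other 69, such as Mrpl19, Mrpl43, Mrps18b, Mrpl24 and Mrpl47 with 36.0%, 33.4%, 30.5%, 26.3% and 24.2% of their exon length opposite another gene. Among those 69, 51 rose and 10 fell with stimulation of control cells, 56 and 9 with stimulation of Batf3 cells, 0 and 33 were higher and lower with Batf3 in non-stimulated cells and 4 and 10 in stimulated cells, and 18 had a higher interaction.

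Genes that act with the mitoribosome were read beside it. The counts below are for stimulation of control cells, at the background of 39.6% of all tested genes higher and 40.7% lower. Of 5 mitoribosomal proteins named otherwise, Ptcd3 and Gadd45gip1 rose with stimulation of control cells and Dap3 and Aurkaip1 fell. Ptcd3, a pentatricopeptide protein of the small subunit, rose by a log2 change of 1.17 ± 0.04, to 126.1 ± 3.17 CPM in control stimulated cells, against 56.2 ± 1.79 CPM in control non-stimulated cells. Dap3, the GTP-binding protein of the small subunit, fell with a log2 change of -0.37 ± 0.07, with 25.6 ± 0.291 CPM in control stimulated and 33.1 ± 1.90 CPM in control non-stimulated cells. Of 26 assembly factors 18 rose and 2 fell (median 0.49), led by Fastkd2, an RNA-binding protein, with 1.67 ± 0.06, and Rcc1l with 1.56 ± 0.07, while Mettl15, a methyltransferase of the small rRNA, had -1.21 ± 0.20. Of 14 translation factors 9 rose and 1 fell, and Tufm, the elongation factor that brings tRNA to the ribosome, had 125 ± 0.946 CPM in control stimulated and 64.5 ± 2.76 CPM in control non-stimulated cells (log2 change 0.96 ± 0.04). Of 20 mitochondrial aminoacyl-tRNA synthetases and partners 12 rose and 6 fell, with Yars2, the tyrosyl-tRNA synthetase, at 1.44 ± 0.06. Of 10 genes of mitochondrial DNA transcription and replication 8 rose and 1 fell, with Top1mt, the mitochondrial topoisomerase, at 3.15 ± 0.12 and Tfam, which packages mitochondrial DNA, at 0.65 ± 0.05. Of 9 regulators 8 rose and 1 fell, among them Myc, with 1268 ± 8.03 CPM in control stimulated against 410.6 ± 8.74 CPM in control non-stimulated cells (log2 change 1.63 ± 0.03).

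Cytosolic ribosomal protein genes, the Rpl and Rps genes of the other ribosome of the cell, were also mostly called higher with stimulation and lower with Batf3 in non-stimulated cells, and their summed level had the same order of groups with and without TMM factors. With stimulation 71 of 76 rose and 1 fell in control cells (median 0.27), and 74 rose in Batf3 cells (median 0.37). With Batf3 72 of 76 were lower in non-stimulated cells (median -0.23) and 61 of 76 in stimulated cells (median -0.11), and 47 had a higher interaction. The shares of all tested genes given above for each comparison are the background of these counts. Whether the 2 families differ was not tested. Of the genes that act on the mitoribosome, 3 of 26 assembly factors (11.5%), 5 of 14 translation factors (35.7%), with Tufm at -0.25 ± 0.05, and 6 of 20 synthetases were lower with Batf3 in non-stimulated cells, at the background of 23.0% of tested genes lower. Myc had 295.2 ± 14.6 CPM in Batf3 non-stimulated against 410.6 ± 8.74 CPM in control non-stimulated cells (log2 change -0.48 ± 0.03; edgeR adjusted p = 1.87e-22), 1200 ± 24.04 CPM in Batf3 stimulated against 1268 ± 8.03 CPM in control stimulated cells, and an interaction of 0.40 ± 0.04.

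The mRNAs that the mitoribosome translates were read in the same way, and whether they differ from the ribosomal protein genes was not tested. Of 13 mitochondrially encoded mRNAs 9 rose with stimulation of control cells (median 0.28; background 39.6% higher), and 1 rose and 2 fell with stimulation of Batf3 cells (median -0.07; background 41.2% higher and 41.4% lower). With Batf3 3 were higher in non-stimulated cells (median 0.14; background 16.3% higher), and 4 were lower in stimulated cells (median -0.20; background 14.6% lower). The interaction was lower in 4 (median -0.30; background 6.08% lower), mt-Nd4l (-0.42 ± 0.08) and mt-Nd5 (-0.37 ± 0.08) among them, while for the ribosomal protein genes it was higher in 19. Their sum was 18630 ± 1797 CPM in Batf3 stimulated, 19610 ± 576 CPM in Batf3 non-stimulated, 20830 ± 350.2 CPM in control stimulated and 17880 ± 694 CPM in control non-stimulated cells. The Batf3 stimulated libraries had 20010, 19270 and 16600 CPM, the widest range of the groups, and replicate 3 was the lowest. Without replicate 3, a choice made after seeing the data, the mean was 19640 CPM, so Batf3 stimulated cells were no longer below Batf3 non-stimulated cells. The counts then became 2 higher and 2 lower with stimulation of Batf3 cells (median 0.00), 1 higher and 3 lower with Batf3 in stimulated cells (median -0.11), 6 higher with Batf3 in non-stimulated cells (median 0.14) and 8 lower for the interaction (median -0.22). With replicate 1 of Batf3 stimulated cells left out instead, 0 rose and 5 fell with stimulation of Batf3 cells, 8 were lower with Batf3 in stimulated cells, 4 were higher with Batf3 in non-stimulated cells and 11 had a lower interaction. With each of the other 10 libraries left out in turn the interaction was lower in 4 every time, 2 to 4 were lower with Batf3 in stimulated cells and 2 to 4 were higher in non-stimulated cells, and 2 fell with stimulation of Batf3 cells, or 0 without replicate 2 of Batf3 non-stimulated cells. The counts with Batf3 in either culture and with stimulation of Batf3 cells thus rest on single libraries. The interaction count also moved with single libraries but was never under 4. On library sizes without TMM factors the sums were 17650, 21580, 19120 and 18680 CPM in the same order, so the order of the groups depends on the scaling. The 2 mitochondrially encoded rRNAs, mt-Rnr1 and mt-Rnr2, were called higher with stimulation of control cells (median 0.36). Both were called lower with Batf3 in stimulated cells (median -0.29), at the backgrounds given above. Neither was called in the other comparisons, and the median interaction was -0.32. In both, replicate 3 was the lowest of the Batf3 stimulated libraries, and results with libraries left out are not given for them. The libraries were made from polyadenylated RNA, and the part of polyadenylation in these levels was not tested.

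**Figure D5:**
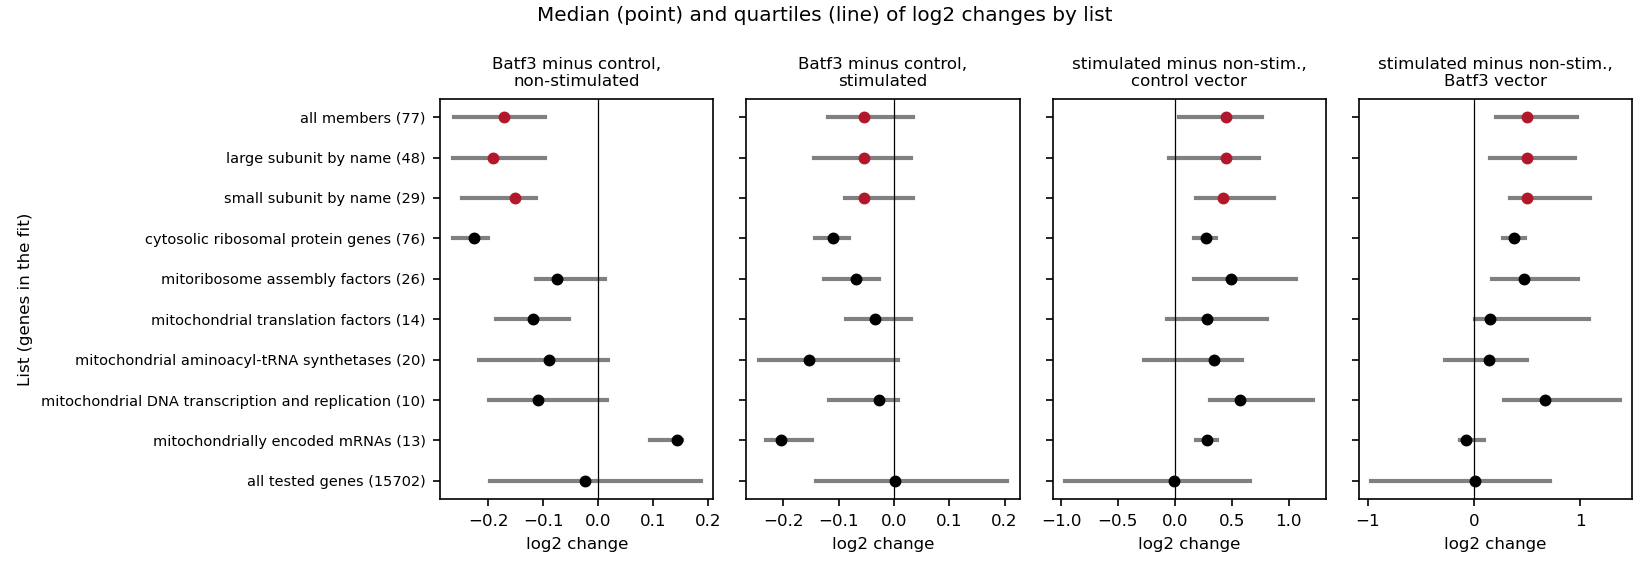
Median (point) and quartiles (line) of log2 changes of the genes of each list, with the number tested in brackets, in the 4 comparisons. The mitoribosomal lists (red) lie at -0.15 to -0.19 with Batf3 in non-stimulated cells and at 0.42 to 0.50 with stimulation, while all tested genes are centred near 0.

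Some of these genes start close to a neighbour on the other strand. For 18 of 78 genes (23.1%) a protein-coding gene on the other strand started at most 1000 bases upstream of the gene's own start. This held for 10.7% of the protein-coding genes tested and 6.79% of all. Pairs that overlap at their starts were not counted, such as Mrpl46 and Mrps11, which run in opposite directions. Of the 18 pairs 12 had the same sign of change with stimulation of control cells. Signs were counted whether or not a change was called, as for Mrpl40 with 0.01. The share over all such pairs of tested genes was not counted, and shared regulation was not tested. Of all 15702 tested genes 7807 lay above 0 in this comparison. Mrps12 (log2 change 0.51) has Sars2, the mitochondrial seryl-tRNA synthetase, 172 bases away with 0.63, and Mrps18b (1.26) has Ppp1r10, a regulator of phosphatase 1, 45 bases away with 0.55. Mrpl51, with -0.05, not called, has Ncapd2, a condensin subunit, 100 bases away with -2.85, and Mrpl2 (0.67) has Klc4, a kinesin light chain, 207 bases away with -2.89. In 3 of the 18 pairs the ribosomal protein gene lay above 0 and its neighbour below, and in 3 the reverse.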

How the data were processed

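The authors deposited a table of raw read counts per gene for 12 libraries of polyadenylated RNA. Reads were handled with STAR 2.7 and featureCounts on GRCm38, per the submitters' processing notes. The strand setting, the annotation release and the treatment of reads with several matches are not given in the sources used. Of 55335 gene IDs, 55154 matched GENCODE M21, which gave exon lengths, overlaps and neighbours, and 181 did not.

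The analysis ran in edgeR 4.0.16 under R 4.3.3. Genes were kept with filterByExpr (15702), scaled with TMM factors, and fitted with 1 mean per group over all 12 libraries (8 residual degrees of freedom). Contrasts were tested with edgeR's quasi-likelihood test, adjusted over all tested genes after Benjamini and Hochberg, and called at an adjusted p under 0.05. SE is the standard error of a log2 change from the fit. CPM used TMM-scaled library sizes, and per-kilobase values divide it by the merged exon length. A count of 3 was taken as the floor of a library, for counting error only. Counts of 15702 genes were simulated with the same profile in all groups. Only 68, 66 and 66 genes were changed, by log2 0.25, 0.5 and 1, in control stimulated cells. Among genes with at least 100 mean counts, stimulation of control cells recovered 97.8% of 46 with a log2 change of 0.5 and 70.2% of 47 with 0.25. Over all changed genes 74.2% and 48.5% were recovered. Far more genes were called in the real comparison, and recovery in that setting was not tested.

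Named genes were the 6 called genes with the largest change each way per comparison (4 for the interaction) with at least 5 CPM in the higher group, the 5 highest and 5 lowest levels, up to 2 called genes each way of the other lists, and Mrpl12, Mrps12, Mrps18a, Mrps18b, Mrps18c, Mrps30, Mrps36, Mrpl58, Dap3, Tufm, Tfam and Myc. Other genes are named where a count or pattern needs it. The genes and lists were chosen with earlier results of these data known, and the class of Mrpl47 and Mrpl55 (bacterial counterpart) was corrected after values were seen. Alternatives were library sizes without TMM factors, RLE size factors, no filter on low counts, a replicate block, the groups of a contrast alone, DESeq2 1.42.0 and each library left out. Added after seeing the data were the length of the principal transcript, the ratio without Mrps6, leaving out genes with overlapping exons or a pseudogene, and leaving out each library for the mitochondrially encoded mRNAs.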

Additional observations from a re-analysis of the deposited data

Results flagged for a closer look

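In 19 genes the Batf3 effect differed between stimulated and non-stimulated cells by edgeR's test of the vector by stimulation interaction, which tests that difference itself. The log2 differences (effect in stimulated minus effect in non-stimulated cells) in large subunit genes were 0.41 for Mrpl12, 0.40 for Mrpl19, 0.39 for Mrpl16, 0.33 for Mrpl42, 0.32 for Mrpl17, 0.29 for Mrpl39, 0.27 for Mrpl30, 0.27 for Mrpl50, 0.26 for Mrpl21, 0.25 for Mrpl46 and 0.21 for Mrpl9. In small subunit genes they were 0.40 for Mrps6, 0.39 for Mrps18b, 0.35 for Mrps22, 0.31 for Mrps21, 0.27 for Mrps2, 0.24 for Mrps7, 0.24 for Mrps26 and 0.23 for Mrps5. All are positive, and the number called was between 9 and 21 when each library was left out in turn.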

How the results depend on the processing

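No direction of a median over the 77 genes was reversed under the alternatives run. With Batf3 in stimulated cells, however, the median was -0.05, and leaving out TMM factors moved the median of all tested genes by 0.05. The summed level was then 3030 CPM in Batf3 stimulated and 3022 CPM in control stimulated cells, against 3197 and 3292 CPM with TMM factors. On library sizes without TMM factors, genes with Batf3 in non-stimulated cells were 1 higher and 24 lower (median -0.10), those with Batf3 in stimulated cells 7 higher and 6 lower, and those lower with stimulation of control cells 19 (median 0.26), with a median of 0.29 for stimulation of Batf3 cells. Of all 15702 tested genes 3604 were then higher and 2397 lower with Batf3 in non-stimulated cells, and 2979 and 1561 in stimulated cells. With stimulation 5086 were higher and 7443 lower in control cells, and 5254 and 7525 in Batf3 cells. That scaling moved the median of all tested genes by -0.19 and -0.21 in the stimulation comparisons of control and Batf3 cells, and the share of higher calls to 60.1% with Batf3 in non-stimulated and 65.6% in stimulated cells, against 41.5% and 50.3% with TMM factors. The higher count with Batf3 in non-stimulated cells was 1 with the groups of the contrast alone. The higher count with Batf3 in stimulated cells was 1 with RLE size factors, 1 with no filter and 0 with DESeq2, and the interaction count was 10 with no filter and 12 with DESeq2. Over all tested genes the higher calls with Batf3 in stimulated cells were 2225 with RLE size factors and 1829 with DESeq2. DESeq2 called 1736 higher interactions over all tested genes. The cause was not tested. With 1 library left out, counts with Batf3 in non-stimulated cells were 0 to 1 higher and 29 to 42 lower (median -0.19 to -0.14), with Batf3 in stimulated cells 0 to 4 higher and 9 to 13 lower (median -0.07 to -0.05), with stimulation of control cells 52 to 54 higher and 10 to 11 lower (median 0.41 to 0.47), with stimulation of Batf3 cells 57 to 61 higher and 8 to 11 lower (median 0.47 to 0.52), and for the interaction 9 to 21 higher and 0 lower (median 0.09 to 0.17). Replicate numbers did not pair the libraries (correlation of same-numbered libraries -0.04 to 0.03), and with the replicate block the counts were 0 and 37, 3 and 10, 54 and 11, 60 and 10, and 17 and 0 higher and lower in the same order of comparisons. Genes with few reads such as Mrpl53, Mrpl14 and Mrps34 had the least precise values.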
